A study of Mus musculus with 4 samples.

Results

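The 10 genes described here encode transcription factors that build the heart and keep heart muscle cells in their specialised state: Gata4, Gata6, Nkx2-5, Tbx5, Tbx20, Mef2a, Mef2c, Mef2d, Hand2 and Srf. They were chosen by name, as known cardiac factors, from the 23337 genes listed for each library, with earlier results of these data known. All 10 had at least 10 reads in every library, the fewest being 513 (Tbx5). In hearts with PIMT deleted in cardiomyocytes, Mef2a and Mef2c mRNA stood at 0.310 to 0.364 of the control level at both ages. Nkx2-5 mRNA stood at 1.73 to 2.21 times the control level. Gata4 stood a little higher and Tbx20 lower at both ages, while the ratios of Tbx5, Gata6, Mef2d, Hand2 and Srf depended on age. Of all genes compared, 22.5% at 2 months and 24.9% at 6 months were more than 2-fold lower. Ratios tended to rise with the GC content of transcripts over all genes. With that trend subtracted, 0 members and 0 of 14667 genes passed the test over both ages.

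The 4 groups of mice were compared, and each gave 1 library, so no group has a replicate and no ratio at a single age has a test. The controls were PIMT fl/fl mice of C57BL6/J background at 2 and at 6 months, which carry floxed PIMT alleles and no Cre. The csPIMT-/- mice of the same ages carry the same floxed alleles together with a Cre transgene under the promoter of α-myosin heavy chain (α-MyHC-Cre), which is active in cardiomyocytes from the late embryo onward and removes exons 3 and 4 of the PIMT gene. Each library was made from the pooled RNA of 5 hearts of male and female mice, so the spread between single mice cannot be seen, and the other cells of the heart keep PIMT. The 4 libraries held 29823073 to 40705783 reads on genes, the smallest being csPIMT-/- at 2 months. In bulk heart tissue, fewer cells of a type and less RNA per cell cannot be told apart.

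Heart muscle genes are switched on by a small group of DNA-binding proteins that act together on the same enhancers. GATA4 and GATA6 are zinc finger proteins that bind GATA sites, NKX2-5 is a homeodomain protein, and TBX5 and TBX20 are T-box proteins. MEF2A, MEF2C and MEF2D and SRF belong to the MADS box family and bind AT-rich elements, the MEF2 box and the CArG box, while HAND2 is a basic helix-loop-helix protein that binds E-boxes. Mutations of GATA4, NKX2-5, TBX5 and TBX20 cause congenital heart defects, and several of these genes remain active in the adult heart, some of them also in fibroblasts or endothelium.

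The targeted gene, listed as Tgs1 (chr4:3574875-3616619 in GRCm38), encodes PIMT, an RNA methyltransferase and coactivator binding protein. It was at 580 normalized counts in the PIMT fl/fl library and 160 in the csPIMT-/- library at 2 months, and at 816 and 162 at 6 months. Its ratios were 0.276 and 0.199. A normalized count here is a read count scaled by the authors to make libraries comparable, and 1 read was worth 0.865 to 1.23 normalized counts. Cardiomyocyte markers were abundant in all 4 libraries, with a summed level over 7 genes of 3139750 normalized counts in PIMT fl/fl and 2349195 in csPIMT-/- at 2 months, and 3596664 and 1713581 at 6 months. Their median ratio was 0.993 and 0.769, and of the 7, 0 at 2 months and 1 at 6 months, Ttn, were past 2-fold lower. Ttn was the largest part of the sum in every library. It was at 1868823 normalized counts in PIMT fl/fl and 1069321 in csPIMT-/- at 2 months, and at 2448081 and 713324 at 6 months. Myh6, Ryr2 and Tnnt2 were also lower in csPIMT-/- at both ages, and Actn2, Tnni3 and Actc1 were higher. The median ratio of 5 endothelial markers was 0.670 at 2 months and 1.28 at 6 months, that of 3 ventricular markers 1.39 and 1.12, of 4 smooth muscle markers 3.64 and 0.788, of 3 macrophage markers 2.56 and 1.70 and of 3 epicardial markers 3.88 and 0.880. The 3 skeletal muscle markers summed to 85.1 to 397 normalized counts, and of the 2 red blood cell markers Hba-a1 was at 0 in all 4 libraries. The other, Alas2, an enzyme of heme synthesis, was at 3832 and 2313 normalized counts at 2 months and at 2855 and 12283 at 6 months, PIMT fl/fl first.

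Promoter sequences were taken for the members on which the results turn, from RefSeq (GRCm38.p6), as the part of a window from 250 bases before to 50 after a gene start that lies outside exons. Of the 10 members, 7 had at least 1 window and Mef2c had 3, of which the most upstream is shown. The Srf sequence is shown because SRF is known to act on its own promoter, and the CArG boxes found in it are in capitals. Those of Mef2a and Mef2c are shown because both genes were low in csPIMT-/- hearts, and that of Nkx2-5 because it was the member with the highest mean ratio; they are in lower case because they held no CArG box. The positions are chr17:46556176-46556412 for Srf, chr7:67372859-67373108 for Mef2a and chr17:26841609-26841815 for Nkx2-5, all on the minus strand. That for Mef2c is chr13:83503784-83504033, on the plus strand. The Nkx2-5 sequence lies inside the span of the gene given below (chr17:26838664-26845009), which is from another annotation, GENCODE.
Srf: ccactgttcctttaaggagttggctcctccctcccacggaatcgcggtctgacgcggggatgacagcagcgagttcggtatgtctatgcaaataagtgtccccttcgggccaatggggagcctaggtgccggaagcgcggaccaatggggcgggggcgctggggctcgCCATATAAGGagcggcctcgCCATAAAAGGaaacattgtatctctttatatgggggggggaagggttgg
Mef2a: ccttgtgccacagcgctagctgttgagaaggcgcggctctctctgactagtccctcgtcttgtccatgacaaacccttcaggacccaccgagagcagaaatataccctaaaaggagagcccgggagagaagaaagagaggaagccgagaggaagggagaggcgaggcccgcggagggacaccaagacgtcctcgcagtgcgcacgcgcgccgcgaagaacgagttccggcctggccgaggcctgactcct
Mef2c: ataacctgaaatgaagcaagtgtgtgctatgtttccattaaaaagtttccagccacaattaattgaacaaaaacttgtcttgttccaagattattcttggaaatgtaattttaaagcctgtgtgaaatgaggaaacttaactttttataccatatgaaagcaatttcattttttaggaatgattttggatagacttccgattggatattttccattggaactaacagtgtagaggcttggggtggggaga
Nkx2-5: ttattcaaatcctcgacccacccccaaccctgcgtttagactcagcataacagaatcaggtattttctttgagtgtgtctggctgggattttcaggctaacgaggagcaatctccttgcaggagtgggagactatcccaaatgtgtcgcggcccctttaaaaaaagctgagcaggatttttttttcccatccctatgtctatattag

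The 6 motifs below were searched on both strands of every window: the CArG box, the MEF2 box, the GATA site GATAA, the NKX2-5 core AAGTG, the T-box core AGGTGT and the E-box CANNTG. An E-box can share bases with an NKX2-5 core. The Srf window held 2 CArG boxes, CCATATAAGG at positions -82 to -73 and CCATAAAAGG at -62 to -53, counted from the gene start. A CArG box was present in 1.63% of all 32851 windows, and 2 or more in 6 windows. A MEF2 box, CTAAAAATAG, lay across the start of Mef2a at positions -2 to 8, and such a box was present in 3.19% of all windows. The GATA site was present in 25.4% of all windows and 2 of the 9 member windows, the NKX2-5 core in 46.4% and 5, the T-box core in 13.7% and 1, and the E-box in 72.3% and 4. The Mef2a and Mef2c windows shown differ in base composition, with 62.3% and 35.7% GC, against a median of 52.7% over all windows.

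**Figure D1:**
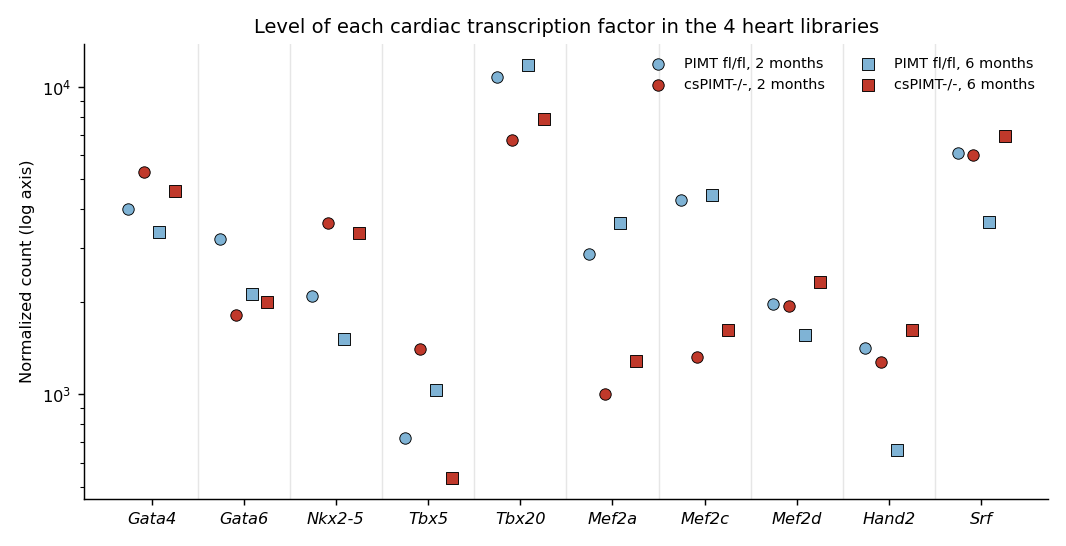
Normalized counts of the 10 cardiac transcription factors (log axis) in the 4 libraries, circles for 2 months and squares for 6 months, blue for PIMT fl/fl and red for csPIMT-/-; each point is 1 library of 5 pooled hearts, with no error bar. Both csPIMT-/- points lie below both PIMT fl/fl points for Mef2a, Mef2c, Tbx20 and Gata6, and above them for Nkx2-5 and Gata4.

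The first question was how abundant the factors are beside each other, and whether that order is the same in csPIMT-/- hearts. Per kilobase of the longest transcript, Srf led in both control libraries, at 2333 normalized counts per kb at 2 months and 1394 at 6 months, and Tbx5 had the lowest value, 183 and 262 per kb. Nkx2-5, Tbx20 and Gata4 filled the next 3 places in both, in changing order, and Tbx20 and Gata4 at 2 months and Nkx2-5 and Gata4 at 6 months did not differ beyond counting error. Nor did Hand2 (280 per kb) and its neighbours Mef2d and Tbx5 in the control of 6 months. In the csPIMT-/- library of 2 months, Nkx2-5 (2369 per kb) and Srf (2298 per kb) led and did not differ beyond counting error, and Mef2a was last at 181 per kb. In that of 6 months, Srf (2655 per kb) led, followed by Nkx2-5 (2200 per kb), and Tbx5 was last at 135 per kb. Mef2c went from the sixth and the fifth place in the controls to the ninth and the eighth in csPIMT-/- hearts.

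The next question was which factors differ with loss of PIMT. Past 2-fold at 2 months were 2 members lower (Mef2a and Mef2c) and 0 higher, beside 22.5% of the 15152 genes compared that were lower and 17.3% that were higher. At 6 months the same 2 members were lower and 2 (Nkx2-5 and Hand2) higher, beside 24.9% and 16.9% of 15218 genes. Lower at both ages were 16.0% of all genes, and higher at both ages 7.73%. With 10 members, 2 that were lower is near the share of all genes at either age. The median ratio of the 10 members was 0.942 at 2 months and 1.13 at 6 months, beside 0.999 and 1.003 for all genes. With limma over all 4 libraries and age as covariate, Mef2a and Mef2c fell and Nkx2-5 rose (adjusted p under 0.05), beside 17.5% of 14847 genes lower and 11.0% higher. The error in this fit comes from the difference between ages, pooled over genes, and not from the spread between mice.

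**Figure D2:**
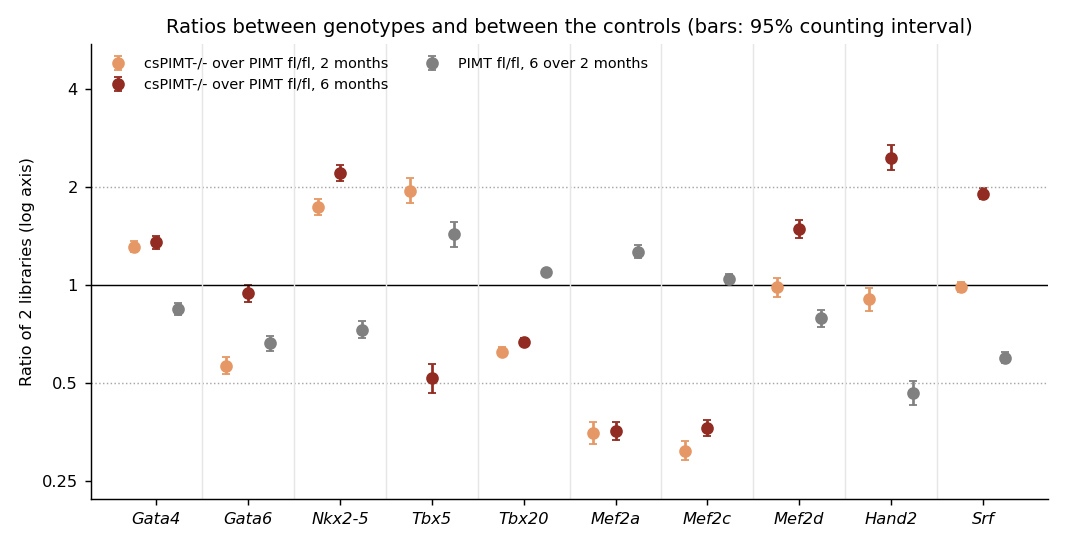
Ratio of 2 libraries (log axis) for each factor, csPIMT-/- over PIMT fl/fl at 2 months (light) and 6 months (dark), and the PIMT fl/fl library of 6 months over that of 2 months (grey); bars are 95% counting intervals and dotted lines mark 2-fold. Mef2a and Mef2c sit between 0.310 and 0.364 at both ages, while Tbx5 is at 1.95 and 0.516, and the grey point of Hand2 is at 0.465.

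Mef2c (chr13:83504034-83667080) encodes the MEF2 factor needed for formation of the right ventricle. It was at 4275 normalized counts in the PIMT fl/fl library and 1324 in the csPIMT-/- library at 2 months, and at 4451 and 1619 at 6 months. Both csPIMT-/- libraries lay below both controls, and the controls differed by a ratio of only 1.04. The ratio was 0.310 at 2 months (95% counting interval 0.290 to 0.331) and 0.364 at 6 months (0.343 to 0.385). Over both ages the log2 difference was -1.57 ± 0.21 (SE; limma, adjusted p = 0.0163), and it stayed past the threshold when each library was left out in turn. The call was lost without the mean trend of the variance (adjusted p = 0.0658) and with the GC trend described below subtracted (-0.21, adjusted p = 0.557), as were those of Mef2a and Nkx2-5.

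Mef2a (chr7:67231163-67372858), whose product is the main MEF2 protein of the adult heart, was at 2857 and 1000 normalized counts at 2 months and at 3610 and 1286 at 6 months, PIMT fl/fl first. As with Mef2c, both csPIMT-/- libraries lay below both controls. The ratio was 0.350 (0.324 to 0.378) at 2 months and 0.356 (0.334 to 0.380) at 6 months. The log2 difference over both ages was -1.50 ± 0.21 (limma, adjusted p = 0.0169), with an adjusted p of 0.0653 without the PIMT fl/fl library of 6 months. Mef2a shares 302 exonic bases with Lysmd4 on the other strand, and the strand setting of the counting was not given in the sources used here.

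Mef2d (chr3:88142372-88172086), the third MEF2 gene, a target of calcium-dependent kinase signalling in stressed heart muscle, did not follow these. It was at 1975 and 1939 normalized counts at 2 months and at 1558 and 2319 at 6 months. The ratio was 0.982 (0.921 to 1.05) at 2 months and 1.49 (1.40 to 1.59) at 6 months, where the control was itself at 0.789 of the control of 2 months. The log2 difference over both ages, 0.27 ± 0.25, missed the threshold (limma, adjusted p = 0.427). Mef2d shares 531 exonic bases with 1700113A16Rik on the other strand.

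Nkx2-5 (chr17:26838664-26845009), an early marker of the heart lineage, moved the other way. It was at 2084 and 3612 normalized counts at 2 months and at 1519 and 3355 at 6 months. Both csPIMT-/- libraries lay above both controls. The ratio was 1.73 (1.64 to 1.83) at 2 months and 2.21 (2.08 to 2.34) at 6 months, and the log2 difference over both ages was 0.97 ± 0.22 (limma, adjusted p = 0.0335). This call was lost with any 1 of the 4 libraries left out (adjusted p 0.0566 to 0.165). Gata4 (chr14:63198922-63271692), a GATA factor that takes part in the hypertrophic response, was at 4020 and 5274 normalized counts at 2 months and at 3382 and 4570 at 6 months. Its ratios were close at the 2 ages, 1.31 (1.26 to 1.37) and 1.35 (1.29 to 1.41), and its log2 difference, 0.41 ± 0.20, did not pass (limma, adjusted p = 0.167).

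Gata6, the other GATA factor of heart muscle, was at 3202 and 1807 normalized counts at 2 months and at 2119 and 2000 at 6 months. The csPIMT-/- libraries were near each other and the control of 2 months stood apart above them. The ratio was 0.565 (0.531 to 0.5999) at 2 months and 0.944 (0.888 to 1.003) at 6 months, and over both ages the log2 difference was -0.45 ± 0.26 (limma, adjusted p = 0.237). Against the control of the other age the ratios were 0.853 and 0.625. Gata6 shares 93 exonic bases with 1010001N08Rik on the other strand.

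Tbx20 (chr9:24718138-24774303), a T-box repressor and activator needed in adult cardiomyocytes, had the most reads of the 10 genes in each library. It was at 10799 and 6734 normalized counts at 2 months and at 11815 and 7884 at 6 months. Both csPIMT-/- libraries lay below both controls, with ratios of 0.624 (0.604 to 0.644) and 0.667 (0.649 to 0.686). The log2 difference over both ages was -0.63 ± 0.20 (limma, adjusted p = 0.0688), short of the threshold.

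Tbx5 (chr5:119832668-119885219), the T-box factor of atria, left ventricle and conduction system, was the only member whose ratio was beyond 1.5-fold in opposite directions at the 2 ages. It was at 723 normalized counts in PIMT fl/fl and 1407 in csPIMT-/- at 2 months, and at 1034 and 534 at 6 months. The highest and the lowest library were thus both csPIMT-/-. The ratio was 1.95 (1.78 to 2.13) at 2 months and 0.516 (0.464 to 0.573) at 6 months, and the log2 difference over both ages was 0.0035 ± 0.49 (limma, adjusted p = 0.996). Ratios on opposite sides of 1 at the 2 ages were found for 20.8% of all genes, and for 4 of the 10 members, Tbx5, Hand2, Mef2d and Srf; for Mef2d and Srf the counting interval at 2 months includes 1.

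Within each age, 4 of the 5 atrial markers differed between genotypes in the same direction as Tbx5, and Nppa did not at 6 months. Across ages they did not follow Tbx5, since Tbx5 was lowest in csPIMT-/- at 6 months and these markers were lowest in PIMT fl/fl at 2 months. Myl7, the atrial regulatory light chain, was at 1045 and 42908 normalized counts at 2 months and at 17299 and 8084 at 6 months. Bmp10, a growth factor of the atrial wall, was at 5.19 and 8564 and at 6296 and 1079. Sln, the atrial inhibitor of the calcium pump, was at 130 and 12629 and at 3996 and 1684. Of the 5 atrial markers, all 5 were past 2-fold higher at 2 months, and at 6 months 3 were lower and 1, Nppa, was higher. None of them was at 0 in any library. Nppa made up most of their summed level, which was 40742 normalized counts in PIMT fl/fl and 334131 in csPIMT-/- at 2 months, and 121253 and 349424 at 6 months. The csPIMT-/- library of 2 months also held markers of lung and the brown fat gene Ucp1, with a summed level of 181 normalized counts of the 4 lung markers against 1.73 to 9.36 in the others, and Ucp1 of brown fat at 1766 against 8.65 to 93.2. The other brown fat marker, Cidea, did not set this library apart, at 2561 normalized counts against 2600 in csPIMT-/- at 6 months and 1889 and 1015 in the controls of 2 and 6 months. The part of these tissues in the ratios of Tbx5 and the other members was not tested.

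**Figure D3:**
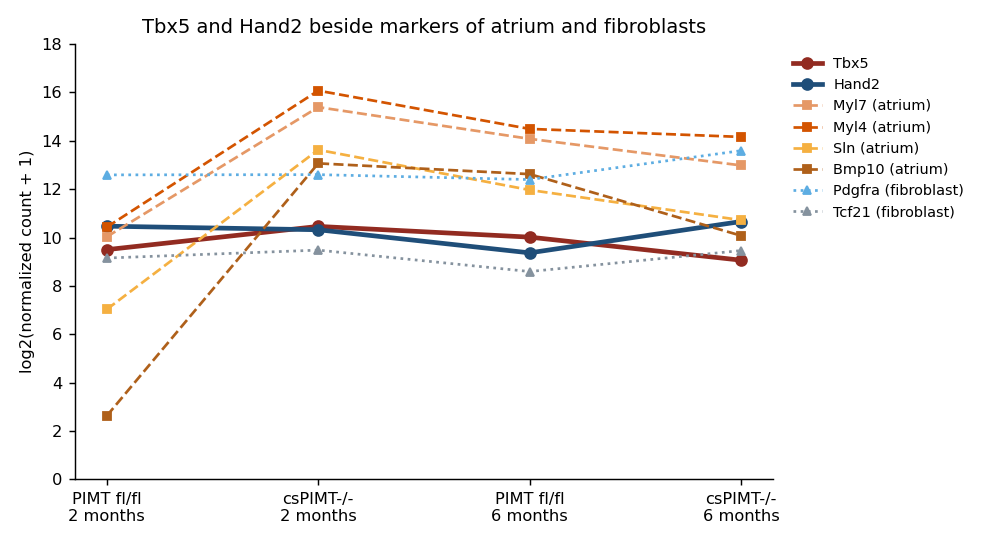
Level in each library of Tbx5 and Hand2 (solid), the atrial markers Myl7, Myl4, Sln and Bmp10 (dashed) and the fibroblast markers Pdgfra and Tcf21 (dotted). The scale is log2(normalized count + 1). Points are single libraries and lines only join the points of a gene. The other fibroblast markers are not plotted. Their PIMT fl/fl ratio of 6 over 2 months was 0.326 for Col1a1, 0.467 for Col1a2, 0.482 for Col3a1 and 0.998 for Dcn. In the same order, csPIMT-/- over PIMT fl/fl at 2 months was 0.761, 1.02, 0.543 and 0.923. Tbx5 and the atrial markers Myl7, Myl4, Sln and Bmp10 are highest in the csPIMT-/- library of 2 months. The atrial marker Nppa, which is not plotted, is highest in the csPIMT-/- library of 6 months (320296 against 201180 normalized counts). The control library of 2 months has 5.19 normalized counts of Bmp10.

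Hand2 (chr8:57320983-57324633), a basic helix-loop-helix factor of the right ventricle, which cardiac fibroblasts also express, was at 1416 and 1277 normalized counts at 2 months and at 659 and 1618 at 6 months. The control of 6 months was the low library, and the other 3 lay close together. The ratio was 0.902 (0.834 to 0.976) at 2 months and 2.46 (2.25 to 2.68) at 6 months, where it was 1.14 against the control of the other age. The controls alone differed by a ratio of 0.465, past 2-fold like 4.65% of all genes that were lower at 6 than at 2 months, and Hand2 was the only member so called; 0 members were past 2-fold higher, beside 9.01% of all genes. The log2 difference over both ages was 0.57 ± 0.39 (limma, adjusted p = 0.305). Of the 6 fibroblast markers, 0 at 2 months and 3 at 6 months were past 2-fold higher, and their summed level was 259093 normalized counts in PIMT fl/fl and 184886 in csPIMT-/- at 2 months, and 134409 and 188027 at 6 months. None was at 0. Their part in the Hand2 ratio was not tested. Hand2 shares 461 exonic bases with the antisense gene Hand2os1, which was not analysed here.

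Srf (chr17:46548329-46556175), the activator of actin and immediate early genes whose promoter holds the pair of CArG boxes printed above, was at 6104 and 6012 normalized counts at 2 months and at 3646 and 6944 at 6 months. The control of 6 months stood apart below the other 3 libraries. The ratio was 0.985 (0.949 to 1.02) at 2 months and 1.90 (1.83 to 1.98) at 6 months. The log2 difference over both ages, 0.45 ± 0.29, did not pass (limma, adjusted p = 0.275). Against the control of the other age the ratios were 1.65 and 1.14.

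The ratio of the ratios at the 2 ages sets these patterns side by side. It was within 1.2-fold of 1 for Mef2a (1.02), Gata4 (1.03), Tbx20 (1.07) and Mef2c (1.17), and 1.27 for Nkx2-5. It was 1.52 for Mef2d, 1.67 for Gata6, 1.93 for Srf, 2.72 for Hand2 and 0.265 for Tbx5. The counting intervals exclude 1 for all but Mef2a and Gata4, but do not hold the spread between mice, so whether the genotype acts differently at the 2 ages was not tested. Between the csPIMT-/- libraries of 6 and 2 months, 1 member, Tbx5 at a ratio of 0.379, was past 2-fold lower, beside 8.2% of all genes, and 0 were higher, beside 9.71%.

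The ratios tended to rise with the GC content of the transcripts, among the members more closely at 6 months than at 2 months. Across all genes, Spearman's rho between the GC content of the longest transcript and the log2 ratio was 0.58 at 2 months and 0.61 at 6 months, and -0.27 between the 2 controls (6 over 2 months). Across the 10 members, which share the 4 libraries, rho was 0.62 and 0.90, and -0.76 between the 2 controls. Mef2c, Mef2a and Tbx20 have the most AT-rich transcripts of the 10, with 40.8%, 42.0% and 42.3% GC, and Nkx2-5 and Srf the most GC-rich, with 67.1% and 64.4%. The trend over all genes at the GC content of Mef2c was a ratio of 0.414 at 2 months and 0.368 at 6 months, and at that of Nkx2-5 1.80 and 1.79.

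**Figure D4:**
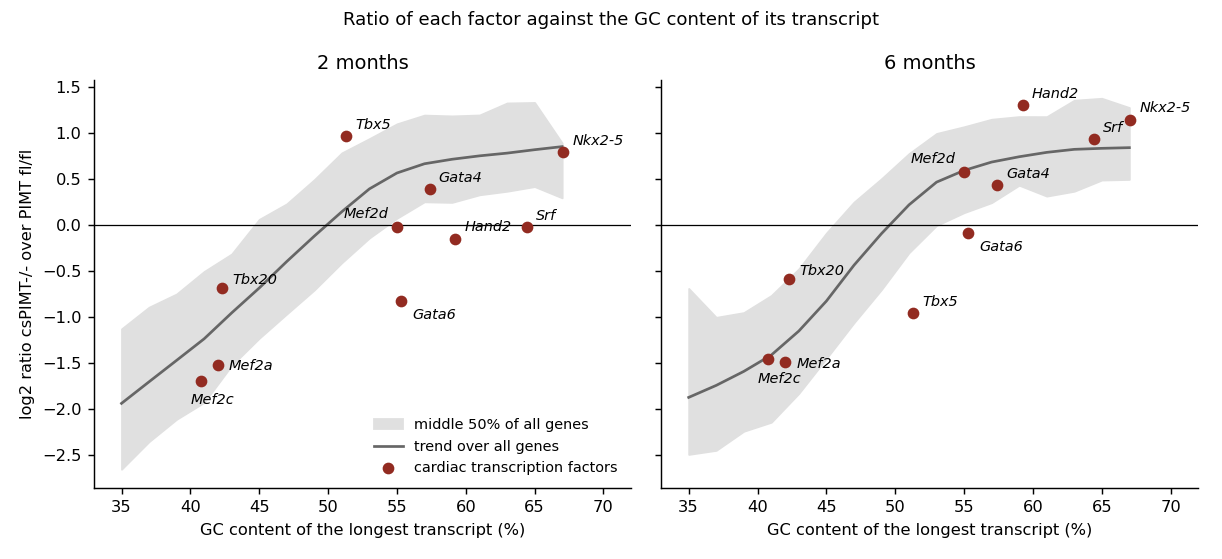
log2 ratio of csPIMT-/- over PIMT fl/fl against the GC content of the longest transcript, at 2 and 6 months; the line is the trend over all genes, the band holds the middle 50% of genes in each bin of GC content, and red points are the 10 factors. At 6 months Mef2c, Mef2d and Srf lie nearest to the trend, at 0.988, 0.986 and 1.07 of it. Tbx5 lies farthest below it (0.429) and Tbx20 farthest above it (1.61).

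After this trend was subtracted, Mef2c stood at 0.748 and 0.988 of the control at the 2 ages, Mef2a at 0.754 and 0.879, Nkx2-5 at 0.962 and 1.24, and Tbx20 at 1.31 and 1.61. Past 2-fold were then Gata6 at 2 months (0.376) and Tbx5 at 6 months (0.429), both lower, beside 11.5% and 13.2% of all genes that were lower, and 0 members were higher at either age, beside 14.9% and 14.2%. With limma on such values 0 members and 0 of 14667 genes passed, with 3821 genes and 2 members at an unadjusted p under 0.05. The log2 differences were then -0.21 for Mef2c (adjusted p = 0.557), -0.28 for Mef2a (0.417), 0.12 for Nkx2-5 (0.734), 0.55 for Tbx20 (0.183) and -1.04 for Gata6 (0.123). Tgs1, the targeted gene, has 41.9% GC and also lost its call. With limma its log2 difference went from -2.09 (adjusted p = 0.0184) to -0.86 (adjusted p = 0.167). After subtraction Tgs1 was past 2-fold lower at 6 months and not at 2 months. The part of GC content in the differences was not tested; subtraction also removes any change of a gene that lies along the trend.

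**Figure D5:**
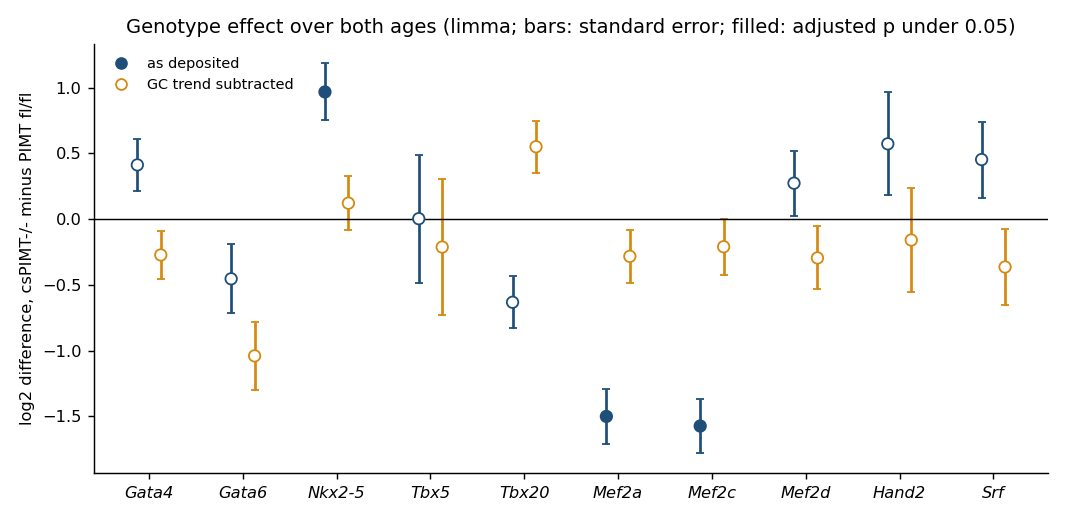
log2 difference of csPIMT-/- minus PIMT fl/fl over both ages for each factor, with limma standard errors, on values as deposited (blue) and with the GC trend subtracted (orange); filled points passed an adjusted p of 0.05. Mef2a, Mef2c and Nkx2-5 are filled in blue, and 0 points are filled in orange.

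Other members of these families were measured next. Of the 10 that could be tested with limma, 0 rose, beside 11.0% of all genes, and 1 fell, beside 17.5%: Irx2, an Iroquois homeobox gene, at 267 and 57.9 normalized counts at 2 months and 211 and 46.8 at 6 months (log2 difference -2.17 ± 0.40, adjusted p = 0.0240). Tbx3, the gene of a transcriptional repressor expressed in the conduction system, was at 720 and 254 at 2 months but 367 and 326 at 6 months. Irx4, a ventricular gene, was at 1734 and 2217 and at 1343 and 1505. Of 11 genes compared, 3 at 2 months and 2 at 6 months were past 2-fold lower, beside 22.5% and 24.9% of all genes, and 1 and 2 higher, beside 17.3% and 16.9%.

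Among 18 cofactors and repressors of these factors, 4 fell and 2 rose with limma, beside 17.5% and 11.0% of all genes, which is near the share of all genes in both directions. Hdac9, a class II histone deacetylase that binds and represses MEF2 proteins, was at 1419 and 369 normalized counts at 2 months and at 1812 and 381 at 6 months, a log2 difference of -2.09 ± 0.25 (limma, adjusted p = 0.0163). Myocd, the muscle coactivator of SRF, fell as well, from 4418 to 2283 and from 4183 to 2310 (-0.90 ± 0.20, adjusted p = 0.0327). Hopx, a homeodomain protein that restrains SRF, was at 13379 and 7602 and at 9676 and 3743 (-1.09 ± 0.23, adjusted p = 0.0306). Nfatc3, a calcineurin-dependent factor, fell too (-1.10 ± 0.23, adjusted p = 0.0298). Ankrd1, a stress-induced cofactor (0.96 ± 0.24, adjusted p = 0.0407), and Smarcd3, a chromatin remodelling subunit (0.80 ± 0.21, adjusted p = 0.0479), rose.

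Of 25 heart muscle genes known as targets of the factors, 3 fell and 5 rose with limma, beside 17.5% and 11.0% of all genes. Myh7, the slow myosin heavy chain, was at 7204 and 30098 normalized counts at 2 months and at 6589 and 310924 at 6 months (log2 difference 3.81 ± 0.81, adjusted p = 0.0306 with limma). The natriuretic peptide genes Nppa (2.29 ± 0.29, adjusted p = 0.0163) and Nppb (2.21 ± 0.45, adjusted p = 0.0288) and Des, the gene of desmin (1.73 ± 0.33, adjusted p = 0.0260), rose. Pln, the inhibitor of the calcium pump, was at 105003 and 40819 and at 147791 and 37939 and fell (-1.66 ± 0.29, adjusted p = 0.0220). Myl7, given above with the atrial markers, did not pass (adjusted p = 0.305).

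Of 16 known SRF targets, 0 fell and 3 rose with limma, beside 17.5% and 11.0% of all genes. Acta1, skeletal α-actin, was at 22823 and 122146 normalized counts at 2 months and at 24275 and 94112 at 6 months (log2 difference 2.19 ± 0.26, adjusted p = 0.0163 with limma). Fhl1, a LIM protein of stressed muscle (1.80 ± 0.21, adjusted p = 0.0163), and Junb, an immediate early gene (1.42 ± 0.23, adjusted p = 0.0196), rose. The smooth muscle genes Cnn1 (adjusted p = 0.207) and Tagln (adjusted p = 0.151), and Fos (adjusted p = 0.0818), did not pass. As for the members, 0 genes of these 4 lists passed once the GC trend was subtracted.

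The genes whose pattern over the 4 libraries was nearest to the members at both ends of the range were sought by Euclidean distance of log2 levels centred on each gene's mean, among 12076 genes. Nearest to Mef2c were Hsf2, Lypla1 and Anp32a, at distances of 0.0308, 0.0325 and 0.0532. Hsf2, a heat shock factor, was at 912 and 282 normalized counts at 2 months and at 975 and 347 at 6 months. Nearest to Nkx2-5 were 2310044H10Rik (0.0234), Galnt10 (0.0271) and Ephb2 (0.0438). Galnt10, a glycosyltransferase, was at 1105 and 1957 and at 805 and 1806. The 3 neighbours of Mef2c had transcripts of 36.2% to 47.7% GC, and those of Nkx2-5 of 55.3% to 60.7%.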

How the data were processed

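RNA of mouse hearts was measured by RNA-seq in 4 libraries. The authors selected poly-A RNA, made directional single-end libraries, filtered reads, aligned them to mm10 with STAR and counted them per gene with HTSeq 0.6.1p1 and a UCSC annotation; the submitters' processing notes also name DESeq2. They deposited 1 normalized count (a signal scaled between libraries, not a raw count) per gene; the 6-month csPIMT-/- column is headed as read counts but is normalized like the others. Dividing by the smallest value above 0 gave whole reads for 100% of values (tolerance 1e-06 reads); on them edgeR 4.0.16 called 2521 genes lower and 1637 higher. No column of per-sample values was left unused.

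Ratios are quotients of normalized counts with 95% Clopper-Pearson intervals, which cover counting error only. A gene was compared where either library had 10 or more reads; log2 ratios add 0.5 reads. Genotype over both ages was fitted with limma 3.58.1 on log2(normalized count + 1) with age as covariate and a mean trend, for genes at 10 or more in at least 2 libraries, with Benjamini-Hochberg adjustment over all genes; log2 differences are on that scale. There was 1 residual degree of freedom, so the test rests on variance borrowed across genes (prior 4.01). GC content is that of the longest GENCODE M21 transcript (GRCm38), found for 97.9% of genes (20953 by symbol and 1891 by RefSeq synonym); the GC trend is a lowess curve of span 0.3. Libraries of both genotypes share age, so age is the block that pairs them. The residual is the difference of the genotype effect between the ages. Standard errors and adjusted p-values thus do not measure the spread between mice. No sequencing batch is given in the sources used here.

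The 10 members and the lists of other family members, cofactors, targets and markers were chosen with earlier results of these data known. Coordinates are from the same annotation. Named were the members, Tgs1, up to 6 genes of each list with the largest mean log2 ratio and at least 100 reads, and 3 genes nearest in pattern to the members at each end of the range. The marker genes printed were chosen after their values were seen. The fitting scripts were tested on simulated data.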

Additional observations from a re-analysis of the deposited data

Results flagged for a closer look

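Tbx5 stood out because the csPIMT-/- heart had more of its mRNA than the control at 2 months, a ratio of 1.95, and less at 6 months, a ratio of 0.516. Hand2 had the opposite order, with a ratio just below 1 at 2 months (0.902) and above it at 6 months (2.46), where the control was the low library and the ratio to the control of the other age was 1.14. With 1 library per group, the difference between ages was not tested for either gene.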

How the results depend on the processing

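The calls of Mef2a, Mef2c and Nkx2-5 held with TMM scaling, other pseudocounts, no filter, edgeR and DESeq2. They also held without age in the model (2706 genes lower, 1905 higher, no member call changed). Without the mean trend of the variance, and with the GC trend subtracted, 0 genes lower and 0 higher passed (2595 and 1637 as reported), and 0 members in place of 2 lower and 1 higher. Leaving out 1 library, with genotype alone in the model, gave 366 to 1882 genes lower, 274 to 1082 higher, 1 to 2 members lower and 0 to 0 higher; the lone library is then assumed to vary like the others. GC subtraction turned the sign of Gata4 (-0.27), Tbx5 (-0.21), Tbx20 (0.55), Mef2d (-0.30), Hand2 (-0.16) and Srf (-0.36), and Tbx5 turned to -0.25 without the PIMT fl/fl and -0.69 without the csPIMT-/- library of 2 months, in a leave-one-out range of -0.69 to 0.70. At 2 months the members' median ratio went from 0.942 to 1.30 with the control of the other age, 1.16 with the mean of both controls and 0.751 with GC subtracted; at 6 months from 1.13 to 0.916, 0.963 and 0.987. Genes past 2-fold lower fell from 3405 to 1719 and from 3794 to 1978 with GC subtracted, when calls higher were 56.5% and 52.0% of all calls in place of 43.4% and 40.5%. Genes higher went from 2616 to 1724 with at least 100 reads and 1687 with the whole interval past 2-fold at 2 months, and from 2579 to 1686 with the whole interval at 6 months. Members lower went from 2 to 1 at each age with GC subtracted, the 1 being Gata6 at 2 months and Tbx5 at 6 months and not Mef2a or Mef2c, and from 2 to 3 at 6 months when scaled to the total reads on genes, with Tbx5 at 0.491. Members higher went from 0 to 1 at 2 months with the control of the other age, and from 2 to 0 at 6 months with that control and with GC subtracted. The causes were not tested.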
